A study of Mus musculus with 27 samples.

Results

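Chemokines and their receptors were followed through the differentiation of mouse embryonic stem (ES) cells into smooth muscle and blood precursors, with and without a dominant-negative FOS peptide (dnFOS) that blocks AP-1. The members were all genes on the array whose symbol was Ccl, Cxcl, Ccr or Cxcr followed by a number, with Cx3cl1, Cx3cr1 and Xcr1. These were 50 of the 37208 genes or transcripts on the array, 32 ligands and 18 receptors. Each was read from the probe with the highest mean signal over the 27 arrays. A member counted as measured where no array of some group had it at background, which held for 32 members (19 ligands and 13 receptors). The other 18 members had only a bound in every group, among them Ccl1, Ccl8, Ccl11, Ccl20, Ccl22, Ccl26, Ccl28, Cxcl2, Cxcl3, Cxcl5, Cxcl13, Cxcl15, Cxcl17, Ccr1, Cxcr1, Cxcr5 and Xcr1. By family, 12 of 19 CC ligands, 6 of 12 CXC ligands, 8 of 10 CC receptors and 4 of 6 CXC receptors were measured, as were Cx3cl1 and Cx3cr1.

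Chemokines are small secreted proteins, named by the spacing of their first cysteines, that bind receptors coupled to Gi proteins and steer the migration of cells along a gradient. Some are made constitutively, such as Cxcl12, which holds Cxcr4-bearing blood stem and progenitor cells near stromal and endothelial cells. Others, such as Ccl2, Cxcl1 and Cxcl10, are induced by cytokines, growth factors or interferons through NF-kappa-B, AP-1, STAT and IRF factors, and several receptors and CC ligands mark cells of the myeloid lineage.

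All groups came from an ES cell line of the A2lox system that carries Flag-tagged dnFOS at the Hprt locus under a doxycycline (DOX)-inducible promoter, so the untreated controls carried the transgene as well. Whether the arrays rest on 1 clone was not given in the sources used here. FLK1+ cells were purified from embryoid bodies at day 3.75 and put into blast culture (BC) with VEGF and IL-6. Whole cultures were taken after 5 h and 24 h (d1), and at day 2 smooth muscle cells (SM), KIT+TIE2+CD41- cells (HE1), KIT+TIE2+CD41+ cells (HE2) and KIT+TIE2-CD41+ progenitors (HP) were sorted. The 13 groups were the untreated FLK1+ cells, 5h BC, d1 BC, SM, HE1, HE2 and HP, and each population but FLK1+ after DOX at 1 µg/ml for 5 h, 1 d or 2 d. Each group had 2 arrays, and untreated SM had 3.

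Levels are log2 signals relative to the 75th percentile of their own array, so that 0 is the brightness of a probe at that percentile, and a level was compared between groups for 1 probe only, never between probes. An array had 46.9% to 89.7% of its probes well above background, 0 spots were saturated, and arrays of a group correlated at 0.92 to 0.97. Mean levels of the 6 smooth muscle markers were 3.86 to 4.52 in untreated SM, those of the 6 hemogenic endothelium markers 3.40 to 4.13 in untreated HE1, and those of the 6 hematopoietic markers 3.43 to 3.46 in untreated HP. The smooth muscle markers were not particular to SM: they averaged 4.66 to 4.72 in untreated d1 BC and 3.43 to 3.94 in untreated 5h BC. Replicate 2 of SM and replicate 2 of SM with DOX stood apart: their hemogenic endothelium markers averaged 2.40 and 2.42, against -0.70 to -0.26 and -0.47 in the other SM arrays. The 27 arrays lay on 5 slides, and DOX-treated and untreated arrays of a population shared a slide in 11 pairs. p-values measure only the spread between samples labelled as replicates, which may be technical. In these bulk samples, fewer cells of a type and less RNA per cell cannot be told apart. Whether the Fos probe lies in the part of Fos that the construct carries was not given in the sources used here, so its level was not used to check the labels.

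The 7 untreated populations differed in 20 of the 32 measured members (moderated F test in limma, Benjamini-Hochberg adjusted p under 0.05), against 17.8% of all 27485 probes tested. These were 12 of 19 ligands and 8 of 13 receptors. Of the 20, 8 were highest in HP (Ccl3, Ccl4, Ccl5, Ccl6, Ccl9, Ccr2, Cx3cr1 and Cxcr2), 3 in d1 BC (Ccl17, Cxcl14 and Cxcr6), 3 in HE1 (Ccl2, Ccr4 and Cxcl1), 2 in FLK1+ cells (Ccr7 and Cxcr4), 2 in SM (Ccl7 and Cxcl12), 1 in 5h BC (Cxcl10) and 1 in HE2 (Cxcr3), by their means. The arrays of the highest population overlapped those of the next one for 7 of the 20 (Ccl2, Ccl17, Ccr4, Cxcl1, Cxcl12, Cxcl14 and Cxcr3). For Ccr4 the means of HE1 (-2.65), HE2 (-2.66) and d1 BC (-2.74) lay within the spread of the arrays, and replicate 1 of HE1 had it below background. The number of members above background on all arrays of a group went from 9 for FLK1+ cells to 17 for 5h BC, 19 for d1 BC, 20 for SM, 16 for HE1, 19 for HE2 and 26 for HP.

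**Figure D1:**
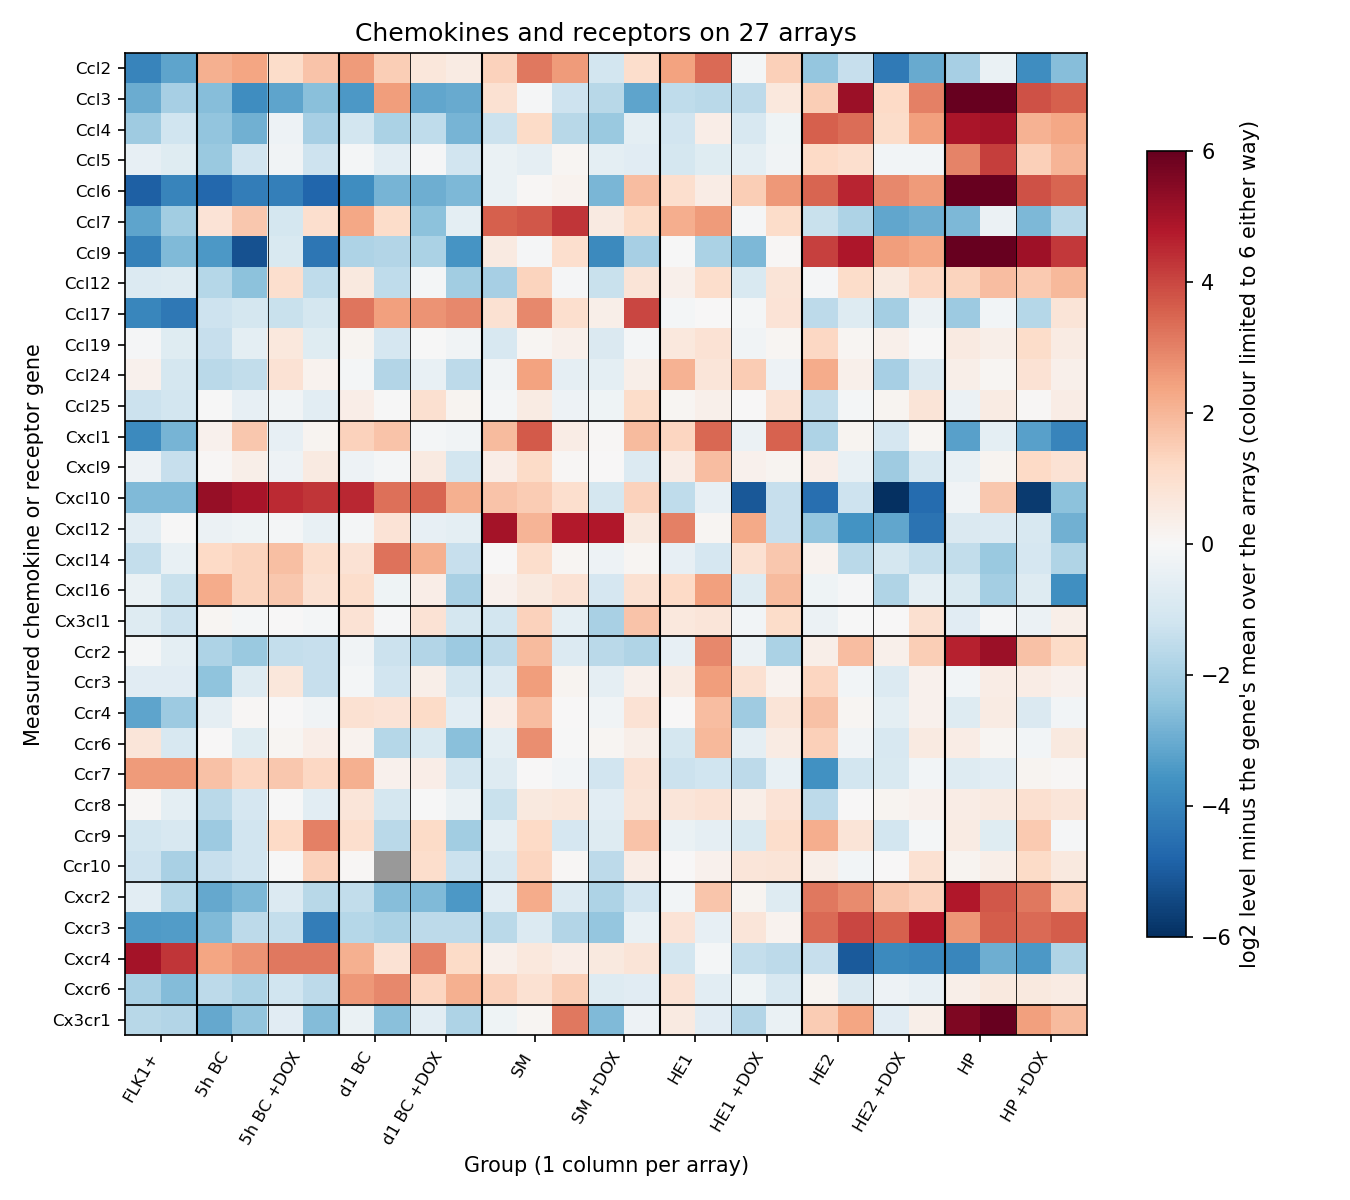
Log2 level of the 32 measured members on each of the 27 arrays, as the difference from the member's own mean, with colours limited at 6 either way and a missing value (Ccr10 in d1 BC replicate 2) in grey. A block of 8 members, among them Ccl9, Ccl6, Ccl3 and Cx3cr1, is highest in untreated HP, while Cxcr4 and Ccr7 are highest in FLK1+ cells and Cxcl10 in 5h BC.

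Ccl2, Cxcl10 and Ccl7 rose on entry into blast culture, while Ccl3 and Ccl4 were not well above background on any array of FLK1+ cells or 5h BC. Ccl2, the monocyte attractant MCP-1, had levels of -3.63 and -2.87 in FLK1+ cells and 2.43 and 2.70 in 5h BC. The groups were far apart, and Ccl2 rose by 5.81 ± 0.82 (log2, SE, n = 2 and 2; limma adjusted p = 0.000793). Cxcl10, an interferon-induced ligand of Cxcr3 that attracts activated T cells, went from -3.06 and -3.04 to 4.84 and 4.55, a rise of 7.75 ± 1.23 (limma adjusted p = 0.00226). Ccl7, a second ligand of Ccr2, was not well above background on either FLK1+ array and was at -2.69 and -1.85 in 5h BC, at least 6.76-fold higher (4.56-fold without FLK1+ replicate 1; limma adjusted p = 0.016). Thus 3 of 17 members tested rose and 0 fell in this step, where 2.59% of all 22691 probes rose and 0.247% fell. Without 5h BC replicate 1 the adjusted p was 0.0613 for Cxcl10 and 0.129 for Ccl7, and the latter was 0.182 without FLK1+ replicate 1 and 0.0802 without 5h BC replicate 2. With normexp background correction Ccl7 was higher by 0.91 (adjusted p = 0.547). With slide as a fixed block, 5 members were called in this step, Cxcl1 and Ccl17 among them, against 1.56% of all probes under that fit (5.57% with slide as a random block, with 5 members as well).

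Other ligands were higher in 5h BC without passing the test. Cxcl1, a neutrophil attractant that binds Cxcr2, was not above background in FLK1+ cells and was at -2.86 and -1.52 in 5h BC, at least 7.13-fold higher (limma adjusted p = 0.0713), with a limit of 4.48-fold without 5h BC replicate 2. Ccl17, a ligand of Ccr4, was at -2.66 and -3.04 in FLK1+ cells and at 0.04 and 0.23 in 5h BC, then at 4.47 and 3.72 in d1 BC, with adjusted p = 0.143 for the first step and 0.0604 for the second. Cxcl16, a transmembrane chemokine and the ligand of Cxcr6, was above background on 1 of 2 FLK1+ arrays and at -0.54 and -1.45 in 5h BC (difference 2.64, adjusted p = 0.21). Ccr4 was not above background in FLK1+ cells, at -4.14 and -3.53 in 5h BC and at -2.70 and -2.79 in d1 BC. The Cxcl16 receptor Cxcr6 was at -3.57 and -3.86 in 5h BC and at 0.64 and 0.88 in d1 BC. Cxcr6 was the 1 of 20 members tested that rose between these cultures, by 4.47 ± 0.53 (limma adjusted p = 0.000484), against 0.558% of all probes. Mean levels of the 6 inflammatory response genes (Il1b, Il6, Tnf, Nfkbia, Ptgs2 and Icam1) were -3.85 to -3.53 in FLK1+ cells and -2.39 to -2.08 in 5h BC. Those of the 6 fibroblast genes were -2.22 to -2.05 and -2.66 to -1.88, and those of the 10 macrophage and myeloid genes -2.83 to -2.08 and -3.32 to -2.85. The 6 interferon response genes averaged -3.45 to -3.41 and -3.28 to -2.91, and of the 2 tested Gbp2, an interferon-induced GTPase, rose by 2.20 (limma adjusted p = 0.0242) and Isg15 was 1.51 higher (0.313). The 6 smooth muscle markers averaged 1.21 to 1.69 and 3.43 to 3.94, with 5 of 5 tested at least 2-fold higher without overlap, of which Acta2, smooth muscle actin, rose by 3.83 (limma adjusted p = 0.00415). The part of these cells or responses in the result was not tested.

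**Figure D2:**
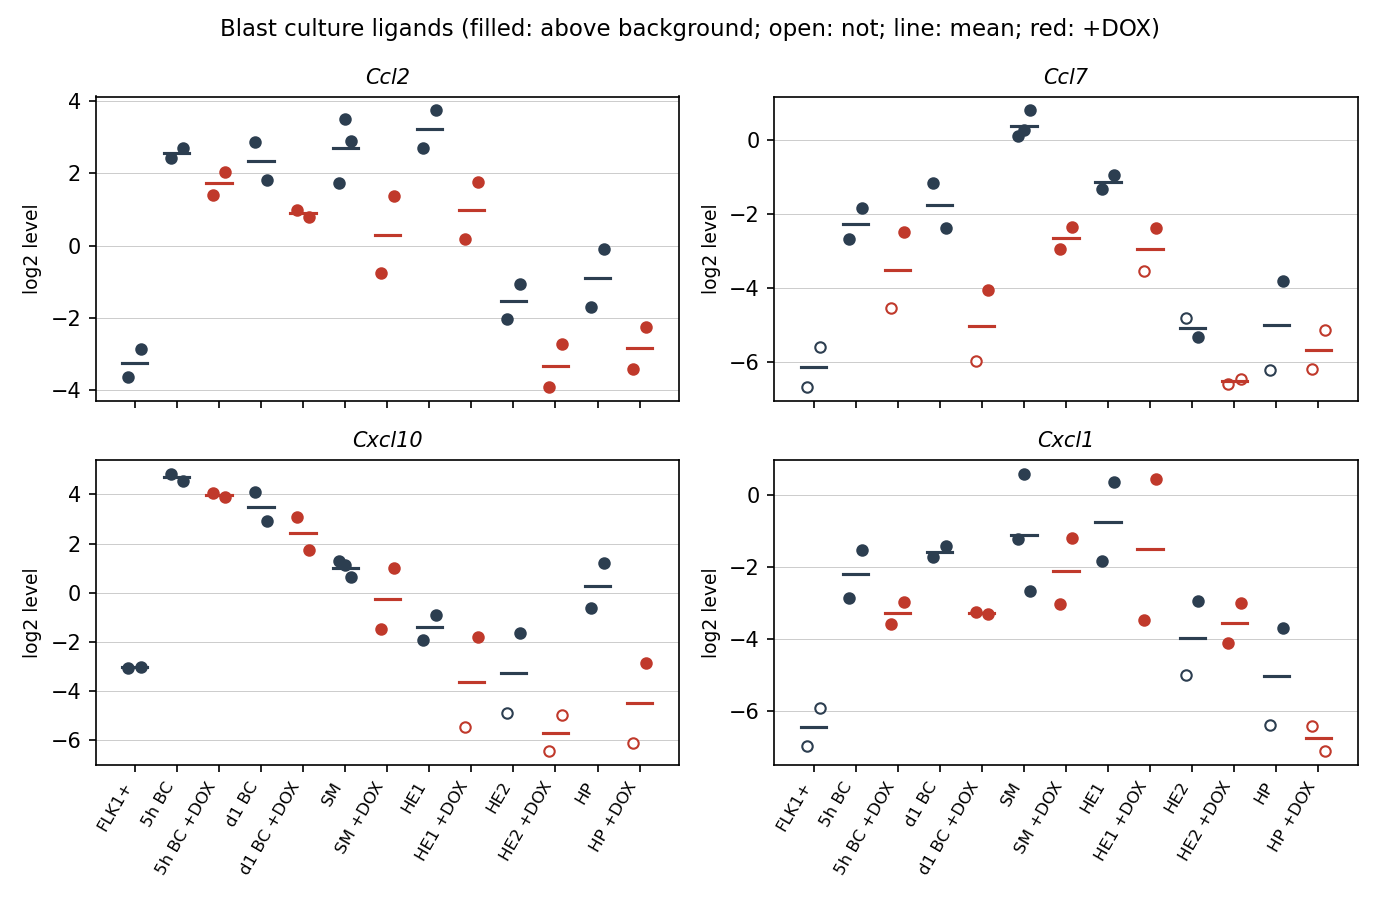
Log2 level of Ccl2, Ccl7, Cxcl10 and Cxcl1 on each array by group, relative to the 75th percentile of the array. Filled points were well above background and open points were not, red marks DOX, and lines are group means: the ligands are low in FLK1+ cells and higher in both cultures, and the DOX-treated Ccl2 points lie below the untreated ones in each of 6 populations.

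Promoters of these ligands are shown because the transgene targets AP-1 and because Cxcl10 and Cxcl1 were among the members higher in 5h BC. The 250 bases before the start are given (RefSeq, build GRCm38.p6, 5′ to 3′ on the strand of the gene) in lower case, with matches in capitals. In Cxcl10 these are, in order, an interferon response element (TTTC, any 2 bases and TTTC, here on the opposite strand), a kappa-B motif (GGGA, any 2 bases and TTCC) and an AP-1 motif (TGACTCA or TGAGTCA), whose first bases lie 213, 159 and 74 bases before the start. In Cxcl1 the capitals mark overlapping kappa-B matches on both strands, whose first bases lie 71 and 70 bases before the start.
Cxcl10, chr5:92348890-92349139, minus strand: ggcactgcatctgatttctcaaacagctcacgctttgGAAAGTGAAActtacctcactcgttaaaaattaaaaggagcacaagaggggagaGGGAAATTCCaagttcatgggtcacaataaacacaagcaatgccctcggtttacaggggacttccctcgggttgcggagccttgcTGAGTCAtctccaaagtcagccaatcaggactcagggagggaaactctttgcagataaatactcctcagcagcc
Cxcl1, chr5:90890995-90891244, plus strand: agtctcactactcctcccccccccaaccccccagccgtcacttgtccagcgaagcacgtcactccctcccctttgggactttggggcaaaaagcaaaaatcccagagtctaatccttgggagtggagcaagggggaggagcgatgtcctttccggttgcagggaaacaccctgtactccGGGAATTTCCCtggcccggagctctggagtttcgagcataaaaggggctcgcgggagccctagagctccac
Over windows of 250 bases before to 50 after the start, searched on both strands, 36 of the 50 members had a promoter in the table. An AP-1 motif was present in 5 of the 36 (13.9%; Cxcl9, Cxcl10, Ccr3, Ccr4 and Ccl28), against 5.2% of all 32851 promoters. The kappa-B motif was present in 6 of the 36 (16.7%; Cxcl1, Cxcl2, Cxcl3, Cxcl10, Ccr3 and Ccl1), against 1.47%, and the interferon response element in 3 (8.33%; Ccl19, Cxcl10 and Cxcl14), against 3.44%. A motif of the myeloid factor PU.1 (GAGGAAGT) was present in 1, that of Cxcr3 (2.78%), against 3.2%. Ccl2 and Ccl7 were not among the 36. Members were counted by gene, with a match in any promoter of the gene, while the share of all was counted by promoter. The kappa-B matches of Cxcl1, Cxcl2 and Cxcl3 had the same bases. A match is a description of the sequence only.

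The receptors Cxcr4 and Ccr7 and the ligand Cxcl12 differed over the 7 untreated populations. Cxcr4, the receptor of Cxcl12, was at 2.29 and 1.58 in FLK1+ cells, -0.35 and 0.01 in 5h BC, -0.60 and -1.85 in d1 BC, -2.42, -2.09 and -2.29 in SM, and not well above background on any HE2 or HP array. These levels differed over the 7 populations (F test, adjusted p = 1.09e-05), although the first step alone had a difference of -2.10 (adjusted p = 0.257). Ccr7, which guides cells towards Ccl19 and Ccl21, was likewise highest in FLK1+ cells at 1.28 and 1.30, and lay between -2.56 and -1.25 on the untreated SM and HE1 arrays (F test, adjusted p = 0.00141). Cxcl12 was at 6.20, 3.24 and 5.97 in SM, 4.25 and 1.34 in HE1, -1.09 and -2.37 in HE2, 0.35 and 0.38 in HP, and between 0.59 and 2.03 in FLK1+ cells and the cultures (F test, adjusted p = 0.0078). The lower SM array is replicate 2, and the fibroblast genes moved with Cxcl12: they averaged 3.96, 2.06 and 4.42 on the SM arrays and 2.86 and -1.08 on the HE1 arrays, and their part in the result was not tested. The single steps of Cxcl12 did not pass, with 3.58 from d1 BC to SM (adjusted p = 0.416) and -4.53 from HE1 to HE2 (adjusted p = 0.0872). No member passed from d1 BC to SM (0 of 22 tested, against 0.251% of all probes; 7 members and 5.88% of all probes had an unadjusted limma p under 0.05) or from SM to HE1 (0 of 21, against 0.568%; 3 members and 8.61% of all probes). Ackr3, the scavenger receptor for Cxcl12, was at 3.31, 2.31 and 3.50 in SM and at -5.00 and -3.26 in HE2.

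Cxcr3, the receptor of Cxcl9 and Cxcl10, was not well above background on all arrays of untreated FLK1+ cells, 5h BC, d1 BC or SM. It was at -1.61 and -2.92 in HE1, 0.94 and 1.54 in HE2 and 0.22 and 1.17 in HP, and rose from HE1 to HE2 by 3.51 ± 0.78 (limma adjusted p = 0.0189). That adjusted p was 0.071 to 0.215 when any 1 of the 4 arrays was left out. The mean of its ligand Cxcl10 was lowest in HE2. In an earlier step, from d1 BC to HE1, Cxcl10 fell from 4.11 and 2.90 to -1.92 and -0.91 (-4.92 ± 1.23, limma adjusted p = 0.0341). That call was lost when any 1 of the 4 arrays was left out, with differences of -5.52 to -4.32. Cxcr6 fell in the same step to -1.10 and -2.64, by 2.63 on the log2 scale (limma adjusted p = 0.00984, and 0.0719 to 0.183 without d1 BC replicate 1, d1 BC replicate 2 or HE1 replicate 2). The d1 BC arrays lay on slides 1 and 3 and the HE1 arrays on slides 4 and 5. With slide as a fixed block neither passed, at -4.81 for Cxcl10 (limma adjusted p = 0.0733) and -2.81 for Cxcr6 (0.0781). With slide as a random block both did, at -4.97 for Cxcl10 (limma adjusted p = 0.00636) and -2.69 for Cxcr6 (0.00553). Cxcr6 did not pass with normexp, at -1.53 (adjusted p = 0.0584). In SM Cxcr6 was at -0.62, -1.06 and -0.51 (adjusted p = 0.379). Cx3cl1, the membrane-bound ligand fractalkine, was above background on all 27 arrays, lay between 2.18 and 4.84 in the untreated groups, and did not pass the F test (adjusted p = 0.766). Ccl25, the ligand of Ccr9, had untreated levels of -0.52 to 1.40. Cxcl14, a CXC chemokine of epithelia, was above background in both cultures (-3.86 and -3.72, then -4.17 and -1.81) and on no array of HE1, HE2 or HP without DOX.

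**Figure D3:**
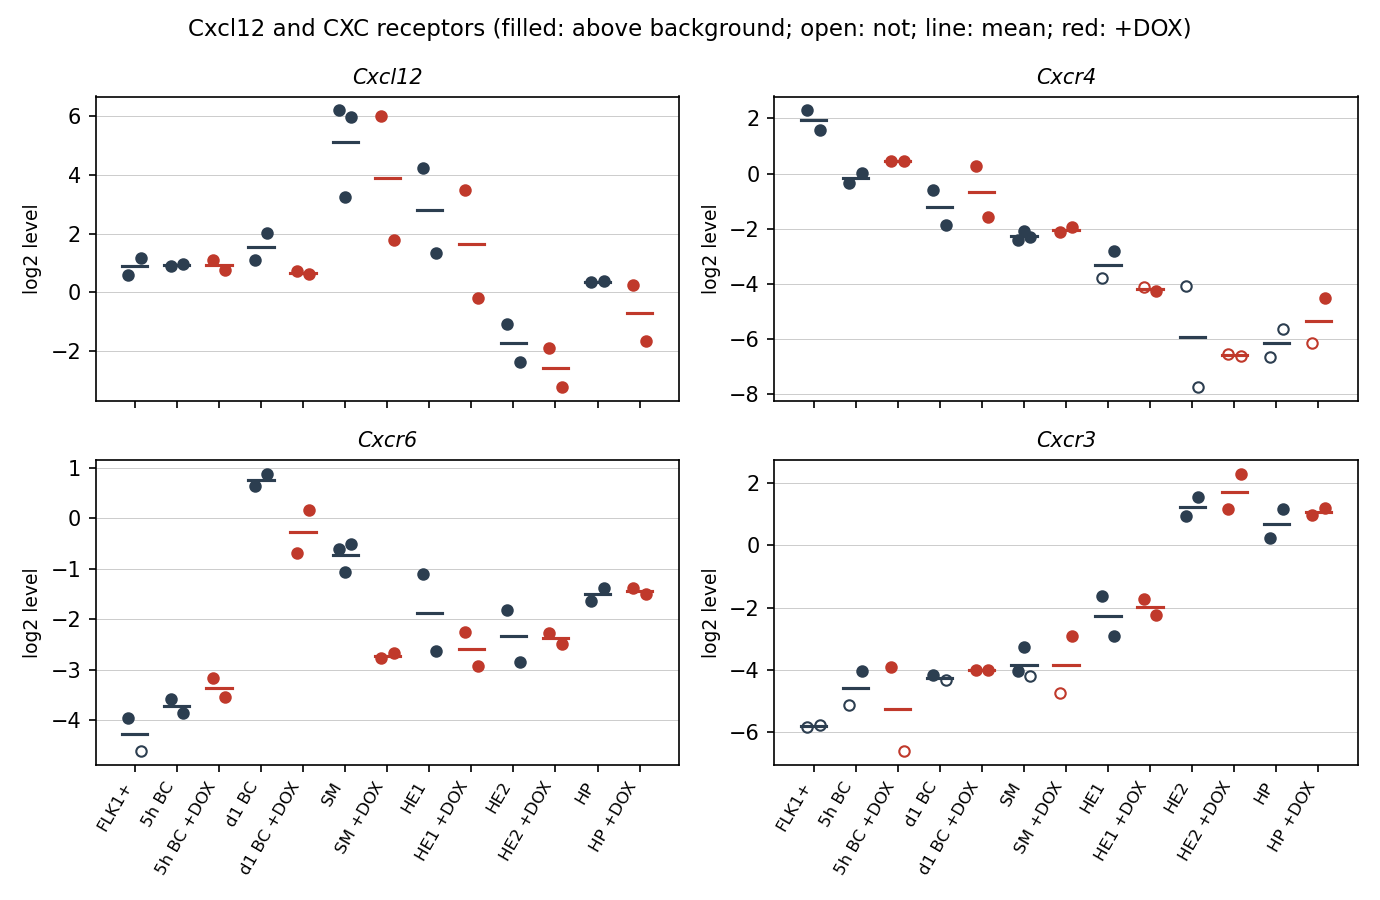
Log2 level of Cxcl12, Cxcr4, Cxcr6 and Cxcr3 on each array by group, drawn as for the ligands above. Cxcr4 is highest in FLK1+ cells at 2.29 and 1.58, Cxcr6 is highest in d1 BC at 0.64 and 0.88, Cxcl12 is highest in SM, and Cxcr3 is highest in HE2 and HP.

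Between HE1 and HE2, the CC ligands Ccl2 and Ccl7 fell and Ccl4 and Ccl9 rose. Ccl2 was at 2.70 and 3.73 in HE1 and at -2.02 and -1.06 in HE2, and fell by 4.76 on the log2 scale (SE 0.82, limma adjusted p = 0.00361, and 0.0645 without HE2 replicate 1). Ccl7 fell from -1.33 and -0.96 to levels of -4.82, below background, and -5.32 (-3.93, limma adjusted p = 0.0138). Its adjusted p was 0.0828 to 0.107 when any 1 of the 4 arrays was left out, and with normexp the difference was -1.45 (adjusted p = 0.285). Ccl9, a ligand of Ccr1 made by myeloid cells, was above background on 1 of 2 HE1 arrays and at 1.79 and 2.58 in HE2, a rise of 5.42 (limma adjusted p = 0.00789, and 0.0546 to 0.116 without HE1 replicate 2 or either HE2 array). Ccl4, the macrophage inflammatory protein MIP-1 beta, was not above background in HE1 and was at -0.82 and -1.09 in HE2, at least 9.90-fold higher (limma adjusted p = 0.0208). Leaving out HE1 replicate 1, HE2 replicate 1 or HE2 replicate 2 gave adjusted p of 0.258, 0.173 and 0.0762 for Ccl4, and normexp gave a difference of 0.80 (adjusted p = 0.949). With Cxcr3, 5 of 25 members tested changed between HE1 and HE2, 3 higher and 2 lower, against 2.33% of all probes. Over alternative settings that kept all arrays, the smallest rise was 3.19 for Ccl9 and 2.15 for Cxcr3. Genes of other cell types moved in the same step. The 6 fibroblast genes averaged 2.86 and -1.08 in HE1 and -2.25 and -3.10 in HE2, with 5 of 5 tested lower and 3 called. The 6 smooth muscle markers went from 2.53 and 1.61 to 0.32 and 0.38 (5 of 5 lower, 1 called) and the 6 hematopoietic markers from -0.80 and -1.14 to 2.12 and 2.22 (6 of 6 higher, 3 called). The part of these cells in the differences of the members was not tested. With slide as a fixed block 10 were called, against 5.78% of all probes under that fit: these 5, Ccl3, Ccl5, Ccl6, Cxcl1 and Cxcl12. Ccl6, another ligand of Ccr1, was already higher in HE1 (-0.83 and -1.39) than in d1 BC, where it was not above background, at least 15.7-fold (limma adjusted p = 0.0239, and 0.109 to 0.178 when any 1 of the 4 arrays was left out). With Cxcr6 and Cxcl10 it made 3 of 22 members that changed in that step, against 3.13% of all probes. With slide as a fixed block the Ccl6 difference in that step was 1.69 (adjusted p = 0.542), and 1 member, Ccl17, was called, against 0.403% of all probes under that fit. With slide as a random block 4 members were called, against 3.79% of all probes, and Ccl6 did not pass (3.20, limma adjusted p = 0.0723).

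Of these ligands Ccl4, Ccl6 and Ccl9 were highest in HP, with Ccl3, Ccl5 and the receptors Cx3cr1, Ccr2 and Cxcr2, while Ccl2 and Ccl7 were low there, at means of -0.90 and -5.01. Ccl9 was at 5.38 and 5.37, Ccl6 at 4.79 and 5.03, and Ccl3, the macrophage inflammatory protein MIP-1 alpha, at 2.96 and 4.75. Cx3cr1, the fractalkine receptor of monocytes and macrophages, was at 1.80 and 2.47 in HP against -2.29 and -1.43 in HE2, and Ccr2, the receptor of Ccl2 and Ccl7, at -0.66 and -0.17 against -4.94 and -3.41. Cxcr2, the receptor of Cxcl1, was at 1.48 and 0.41 against -0.14 and -0.46, and Ccl5, a ligand of Ccr1 and Ccr3, at -0.25 and 0.92 against -2.05 and -2.22. In all of these the HP and HE2 arrays did not overlap. Of 27 members tested, 13 were at least 2-fold higher in HP without overlap, against 5.79% of all probes, but 0 passed the adjusted test, where 0.00394% of all probes did (7 members had an unadjusted limma p under 0.05, as did 6.05% of all probes). A member could enter this test through HP alone, the group where it was high, as Ccr2 did. Limma adjusted p was 0.175 for Ccl5, 0.316 for Cx3cr1 and 0.339 for Ccr2. Members passed this step under normexp (3: Ccl3, Ccl9 and Cx3cr1, against 0.209% of all probes) and in the authors' values (5: Ccl3, Ccl5, Ccl9, Ccr2 and Cx3cr1, against 0.725%). The 10 macrophage and myeloid genes averaged -0.81 and -0.26 in HE1, 0.92 and 0.43 in HE2 and 1.17 and 1.05 in HP. From HE2 to HP the 6 interferon response genes went from -2.02 and -1.60 to -0.68 and -0.19, the 6 inflammatory response genes from -1.66 and -0.72 to -0.35 and 0.09, and the 6 hematopoietic markers from 2.12 and 2.22 to 3.46 and 3.43. The part of these genes, or of the cells that express them, in these results was not tested.

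**Figure D4:**
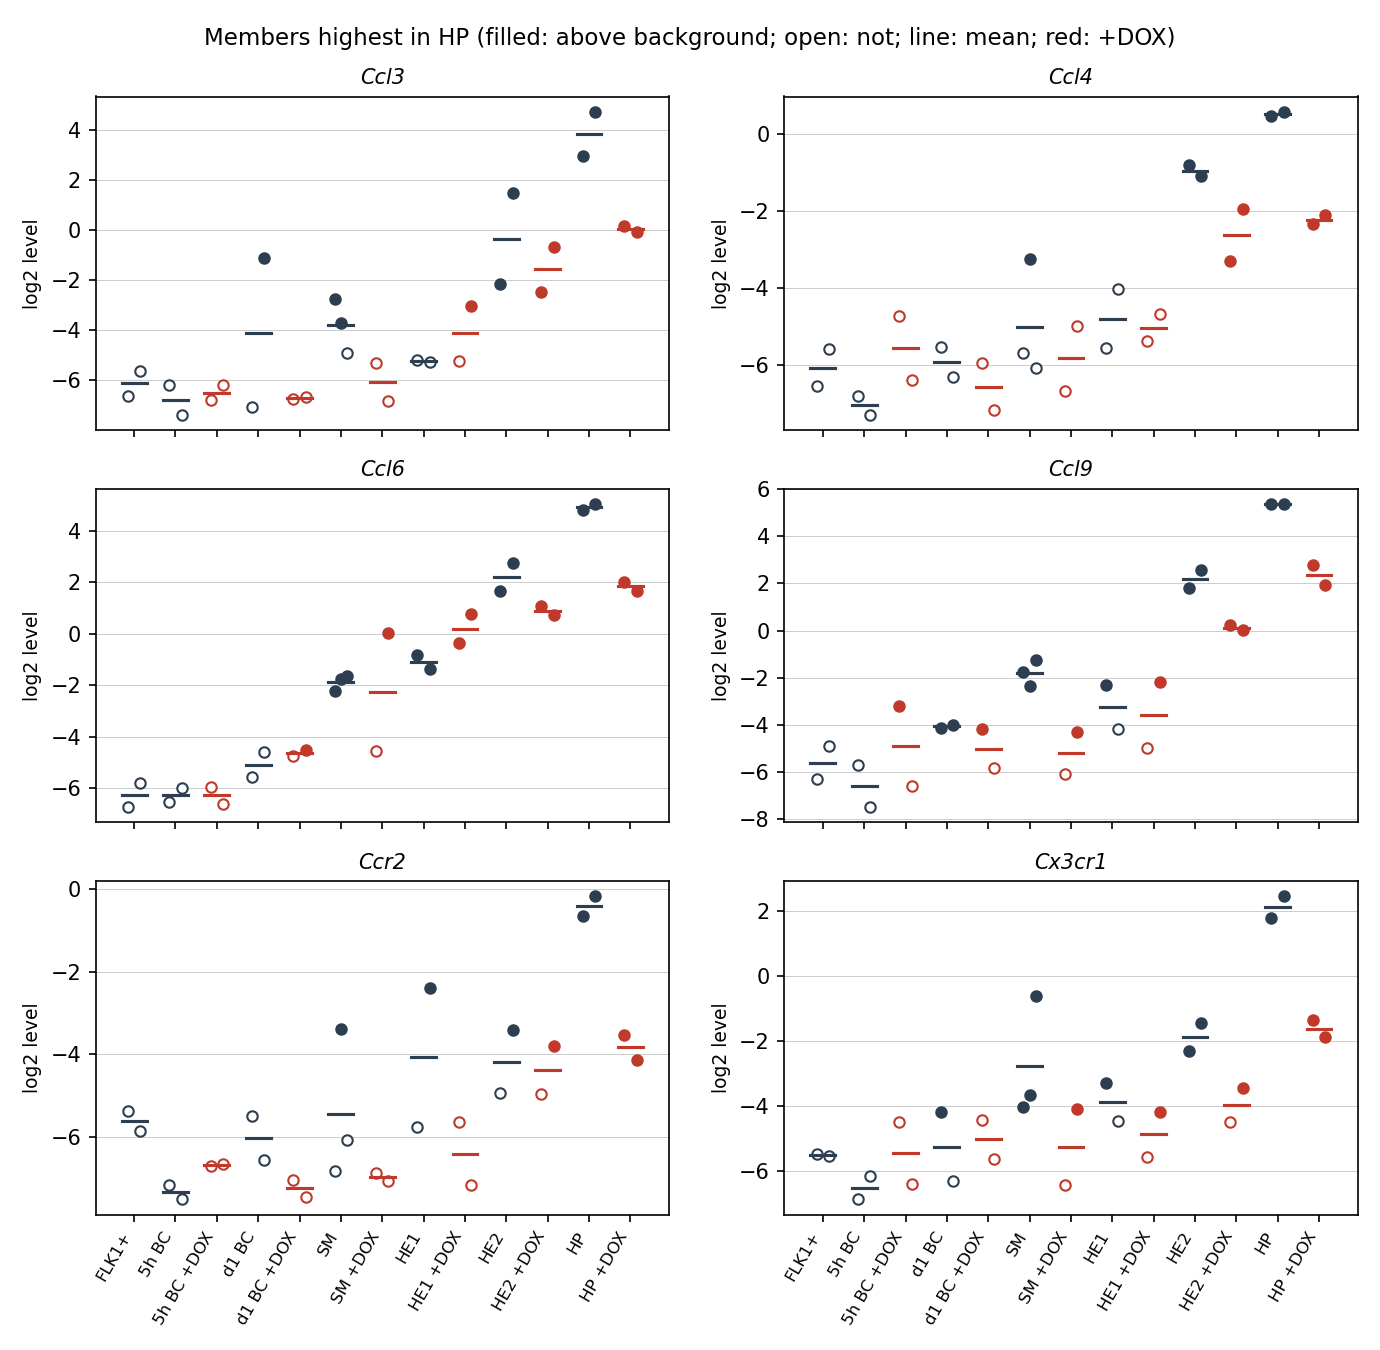
Log2 level of Ccl3, Ccl4, Ccl6, Ccl9, Ccr2 and Cx3cr1 on each array by group, drawn as for the ligands above. All 6 are highest in untreated HP, and the DOX-treated HP points lie below the untreated HP points, for Ccl9 at 2.78 and 1.95 against 5.38 and 5.37.

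DOX-treated and untreated arrays were compared in each of the 6 populations. No group had DOX without the dnFOS transgene, so effects of DOX itself and of dnFOS cannot be told apart. In no single population did a member pass the adjusted test (0 members), which 0.0042% of all probes passed for 5h BC, 0.00839% for SM, 0.0318% for HP and 0.0% for d1 BC, HE1 and HE2. An unadjusted limma p under 0.05 was found for 2 of 19 members tested at 5h (5.02% of all probes), 1 of 21 at d1 (1.45%), 5 of 20 for SM (2.61%), 2 of 18 for HE1 (1.15%), 5 of 24 for HE2 (8.9%) and 10 of 27 for HP (3.51%). Taken over the 6 comparisons, 32 of 129 member results (24.8%) were at least 2-fold lower with DOX without overlap of the arrays, against 4.45% of all results, and 6 (4.65%) were at least 2-fold higher, against 5.3%. Whatever the size, 83 (64.3%) were lower, against 42.1%. These results count a member again in each population where it was tested, so they are not independent. Ccl2, Ccl7, Ccl9 and Cx3cr1, for example, were among the lower ones in several populations. A member could also enter through only the group where it was high, as did Cxcl10 in HP and Ccr9 in 5h BC. By population (5h BC, d1 BC, SM, HE1, HE2, HP) the lower ones were 1, 4, 5, 2, 9 and 11, beside 1.29%, 2.62%, 3.27%, 2.41%, 10.4% and 6.51% of all probes. The higher ones were 2, 0, 0, 1, 2 and 1, beside 10.7%, 2.22%, 1.2%, 1.61%, 9.79% and 6.14%. The median difference of the members was -0.04, -0.60, -0.52, -0.74, -0.84 and -0.08 in that order, and that of all probes -0.03, 0.13, 0.09, 0.09, 0.17 and 0.25. Sizes depended on the treatment of background: of the 38 single differences of members named for DOX, 25 were over 1.5 times smaller with normexp and 15 in the authors' values, and 0 changed direction.

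The effect of DOX averaged over the 6 populations was called for 2 of 32 members, both lower, against 0.159% of all 28325 probes called lower. These were the Ccr2 ligands Ccl2 and Ccl7. Ccl2 was lower with DOX in every population without overlap: 1.40 and 2.04 against 2.43 and 2.70 in 5h BC, 0.98 and 0.80 against 2.87 and 1.81 in d1 BC, and -0.77 and 1.37 against 1.72, 3.49 and 2.88 in SM. In HE1 it was at 0.18 and 1.76 against 2.70 and 3.73, in HE2 at -3.91 and -2.73 against -2.02 and -1.06, and in HP at -3.41 and -2.24 against -1.70 and -0.10. The mean effect was -1.77 ± 0.33 (limma adjusted p = 0.0302), with single differences from -0.84 in 5h BC to -2.40 in SM.

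Ccl7 fell on average by 1.90 on the log2 scale (SE 0.33, limma adjusted p = 0.0217). In SM it was at -2.94 and -2.35 with DOX against 0.08, 0.24 and 0.79 without, and in d1 BC at -5.98, below background, and -4.06 against -1.16 and -2.38. In HE1 only 1 of the 2 DOX arrays measured it, at -2.37, against -1.33 and -0.96. Ccl2 was no longer called when any 1 of 14 of the 25 arrays was left out (adjusted p 0.0523 to 0.0846, mean effect -1.95 to -1.59 over all omissions): both arrays of 5h BC, 5h BC with DOX and d1 BC with DOX, replicate 1 of d1 BC, HE1 with DOX, HE2 with DOX and HP with DOX, replicate 2 of HE1, HE2 and HP, and replicate 3 of SM. Ccl7 was no longer called when any 1 of 7 arrays was left out (adjusted p 0.0502 to 0.0705, mean effect -2.10 to -1.71 over all omissions): replicate 2 of 5h BC, HE1, HP and HE2 with DOX, and replicate 1 of 5h BC with DOX, d1 BC and d1 BC with DOX. Ccl7 was below background on at least 1 array in 5 of the 6 populations, so that the SM difference alone is free of background values: on replicate 1 with DOX in 5h BC (-4.54), d1 BC and HE1, and on both DOX arrays and 1 of the 2 untreated arrays of HE2 and HP. Both Ccl2 and Ccl7 were called without replicate 2 of SM and without replicate 2 of SM with DOX. With normexp the mean effect on Ccl7 was -0.83 (adjusted p = 0.113), and Ccl2 alone was called, against 0.109% of all probes. Ccl2 alone was called also with detection required in all groups (0.0961% of the probes tested).

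Cxcl10 had a mean difference of -2.08 ± 0.50 and did not pass (limma adjusted p = 0.121). It was below background with DOX on 1 of 2 arrays in HE1 and HP and on both in HE2, and on 1 untreated HE2 array, so the size of the difference rests in part on background values. With slide as a fixed block 3 members were called, Ccl2, Ccl7 and Cxcl10, against 0.272% of all probes. Over all members 22 of 32 were lower on average with DOX, with a median of -0.39, against 35.3% of all probes and a median of 0.14. These were 15 of 19 ligands (median -0.51) and 7 of 13 receptors (median -0.13). The measured members Ccl12, Ccl19, Ccr3, Ccr6 and Ccr8 had mean effects of -0.37 to 0.35, and did not pass the F test over the untreated populations either (adjusted p 0.172 to 0.853). The effect was not found to differ between the populations: 0 members passed the F test of the difference (0.0% of all probes), and 5 had an unadjusted limma p under 0.05 (1.85% of all probes).

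Within slides, Ccl2, Cxcl10 and Cxcl12 were lower with DOX in 11 of 11 pairs, as were 0.314% of all probes. The ranges were -2.52 to -0.66 for Ccl2, -5.52 to -0.12 for Cxcl10 and -2.02 to -0.10 for Cxcl12, while the median over all probes in a pair lay between -0.70 and 0.44. Ccl7 was lower in 10 pairs (1.61% of all probes were lower in at least 10). Cxcl1, Cxcl16, Ccl4, Ccl9, Ccr2, Ccr4, Cx3cr1 and Cxcr2 were each lower in 9 (4.82% in at least 9). These counts include pairs with both arrays below background, as in most pairs of Ccr2 and Ccl4, in replicate 1 of HE2 for Cxcl10, and in replicate 1 of HE2 and of HP for Ccl7. The mean effect was -0.86 ± 0.53 for Cxcl12 (limma adjusted p = 0.688) and -0.90 ± 0.41 for Cxcl16 (adjusted p = 0.638), so neither passed the test over all arrays. Over the alternative settings and omitted arrays it ran from -1.21 to -0.51 for Cxcl12 and from -1.14 to -0.33 for Cxcl16. Cxcr3 and Cxcr4 were lower in 3 of 11 pairs each.

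**Figure D5:**
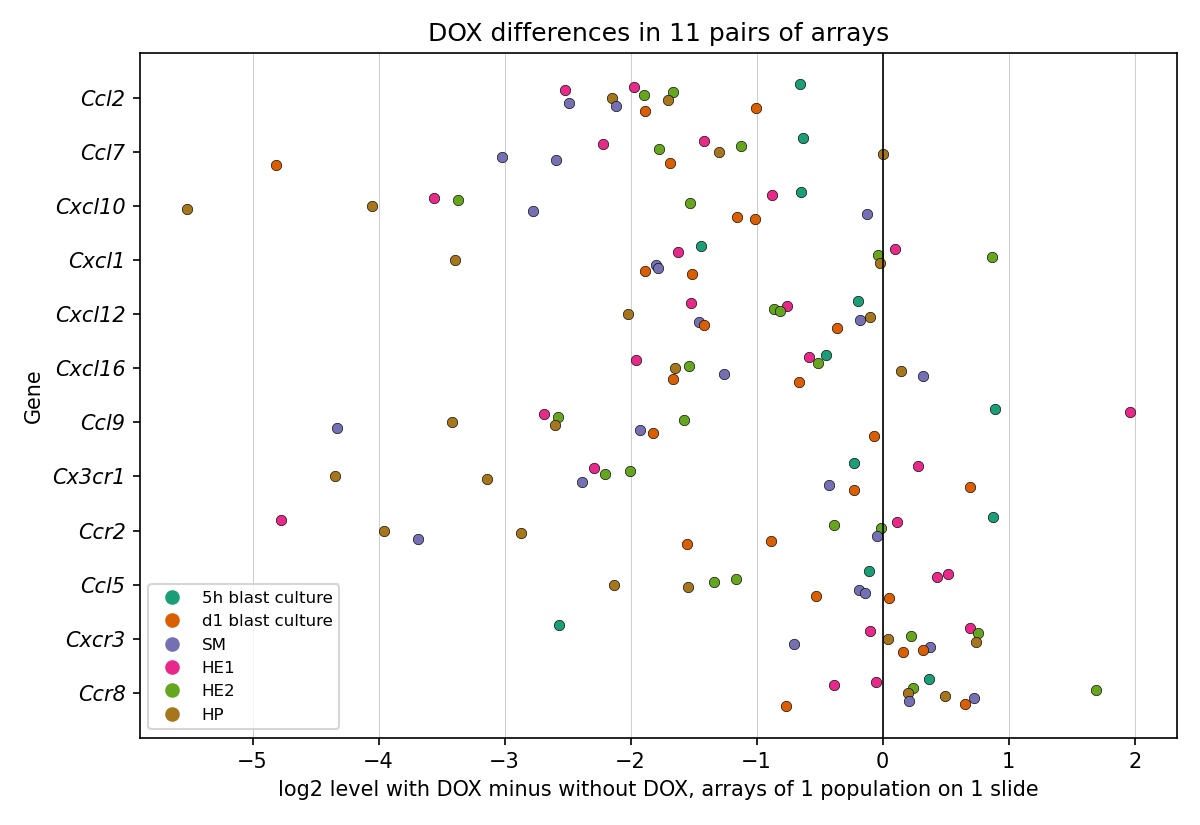
Difference in log2 level between the DOX-treated and the untreated array of a population on 1 slide, for 12 members in 11 pairs, each point a pair and 0 marking no difference. All points of Ccl2, Cxcl10 and Cxcl12 lie below 0, down to -5.52 for Cxcl10, and those of Cxcr3 lie mostly above it.

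In HP, 11 members were at least 2-fold lower with DOX without overlap, and 0 passed the adjusted test. Ccl9 was at 2.78 and 1.95 with DOX against 5.38 and 5.37, Ccl6 at 1.99 and 1.67 against 4.79 and 5.03, and Ccl3 at 0.16 and -0.09 against 2.96 and 4.75. The receptors Cx3cr1, at -1.34 and -1.88 against 1.80 and 2.47, and Ccr2, at -3.53 and -4.13 against -0.66 and -0.17, were lower as well. Cxcl10 was at -6.14, below background, and -2.86 with DOX against -0.62 and 1.19. None of these overlapped, and the differences were -4.79 ± 1.23 for Cxcl10 (limma adjusted p = 0.353), -3.74 for Cx3cr1 (0.457), -3.42 for Ccr2 (0.548), -3.08 for Ccl6 (0.561) and -3.01 for Ccl9 (0.931). With normexp they were -2.20 for Cxcl10 and -1.74 for Ccr2, and in the authors' values -3.12 and -2.59. Ccl4 (-2.74), Ccl5 (-1.84), Ccl3 (-3.82), Ccl2 (-1.93), Cxcr2 (-1.94) and Cxcl12 (-1.06) made up the 11. Cxcl12 was at 0.24 and -1.65 with DOX against 0.35 and 0.38, and without HP with DOX replicate 2 it differed by -0.12. Without that array Cxcr2 differed by -1.07, without replicate 1 of HP with DOX Cxcl10 by -3.14, and without replicate 2 of HP Ccl2 by -1.12. In the other direction Cxcl9, at -3.36 and -3.71, was 1.20 higher with DOX (adjusted p = 0.999), but was below background on replicate 1 of untreated HP, and its second probe, above background on 2 of the 27 arrays, differed by 0.14. Members passed under normexp (3: Ccl3, Ccl9 and Cx3cr1, against 0.143% of all probes), in the authors' values (5: Ccl4, Ccl5, Ccl9, Ccr2 and Cx3cr1, against 0.541%) and with slide as a fixed block (1: Cxcl10, against 0.0915%). A second Cx3cr1 probe, above background on 6 arrays, differed by -3.63 in HP, by -3.89 in HE2 and by -0.89 in SM.

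Other genes differed in the same samples. Of the 10 macrophage and myeloid genes, 6 were lower with DOX in HP without overlap, 4 of them at least 2-fold, and 3 were higher without overlap, 1 of them at least 2-fold. Of all probes, 12.5% were lower and 25.7% higher without overlap. The list averaged 0.60 and 0.15 with DOX against 1.17 and 1.05. Tyrobp, a myeloid signalling adaptor, was at 4.13 and 3.39 against 5.42 and 5.39, and Cd14, the lipopolysaccharide co-receptor, at -1.49 and -2.21 against 1.44 and 1.72, while the integrin subunit Itgam was at 5.77 and 4.10 against 3.69 and 3.20. The 6 inflammatory response genes averaged -2.09 and -2.02 with DOX against -0.35 and 0.09, with 6 of 6 lower and 4 at least 2-fold lower without overlap. The 6 interferon response genes averaged -2.42 and -2.81 with DOX against -0.68 and -0.19 in HP. They were lower also in HE1 (-2.45 and -2.95 against -1.28 and -1.38), HE2 (-3.41 and -3.47 against -2.02 and -1.60) and SM (-2.18 and -2.99 against -1.62, -0.87 and -0.70), but not in 5h BC, where they lay at -3.15 to -2.42 against -3.28 to -2.91, or in d1 BC, at -3.15 to -2.41 against -3.29 to -2.95. Of this list Ifit1 (-2.15, limma adjusted p = 0.00336) and Gbp2 (-1.06, adjusted p = 0.0459) fell over the 6 populations. The part of these genes, or of the cells that express them, in the lower chemokine levels was not tested.

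HE2 showed part of the same members at lower levels with DOX, beside 10.4% of all probes. Replicate 1 of untreated HE2 was the dimmest array, with a 75th percentile of 73.2. In its pair on 1 slide the median difference over all probes was -0.70, against 0.44 in the replicate 2 pair. The Ccl6 differences in these pairs were -0.59 and -2.04. Ccl9 was at 0.21 and 0.01 against 1.79 and 2.58 (-2.07), Cx3cr1 at -4.49, below background, and -3.44 against -2.29 and -1.43 (-2.10), and Ccl4 at -3.30 and -1.96 against -0.82 and -1.09 (-1.68). Ccl5 (-1.25), Ccl2 (-1.78), Ccl6 (-1.31) and Cxcr2 (-1.50) were also lower, with limma adjusted p between 0.541 and 0.562 for these 7 members. The difference was -1.01 for Ccl4 without replicate 1 of HE2 with DOX, and -0.76 for Ccl6 without replicate 2 of HE2. Ccl24, an eosinophil attractant, and Ccr9, the receptor of Ccl25, were not above background with DOX, at least 4.66-fold and 4.20-fold lower. Without HE2 replicate 1 these limits were 2.40-fold and 2.57-fold, and with normexp the differences were -0.51 for Ccl24 and -0.47 for Ccr9. In the other direction Ccr7 was 1.83 and Ccl25 1.23 higher with DOX (both adjusted p = 0.541), beside 9.79% of all probes. Ccr7 was below background on replicate 1 of untreated HE2, and without that array the differences were 0.57 for Ccr7 and 0.57 for Ccl25, against 3.10 and 1.88 without replicate 2. The 10 macrophage and myeloid genes averaged -0.17 and -0.16 with DOX against 0.92 and 0.43 in HE2, with 7 of 9 tested lower, and their part in these differences was not tested.

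In SM, Cxcr6 was at -2.77 and -2.66 with DOX against -0.62, -1.06 and -0.51, a difference of -1.99 (limma adjusted p = 0.578). The differences were -3.02 for Ccl7 (adjusted p = 0.626; the 1 member called in the authors' values, against 0.0755% of all probes), -3.40 for Ccl9 (0.806), -2.40 for Ccl2 and -2.48 for Cx3cr1 (both 0.999), with Ccl9 and Cx3cr1 below background on 1 of the 2 DOX arrays. In the authors' values those of Ccl9 and Cx3cr1 were -1.42 and -0.87. Within the pair on slide 1, which holds neither array with endothelial markers, the differences were -2.16 for Cxcr6, -3.02 for Ccl7 and -2.49 for Ccl2, and Ccl9 was below background on the DOX array. Without replicate 1 of SM with DOX the differences were -1.33 for Ccl2 and -1.31 for Cx3cr1, and the latter was -1.40 without replicate 3 of SM. The 10 macrophage and myeloid genes averaged -2.42 and -1.67 with DOX against -1.94, -0.59 and -1.62 in SM. Of 7 tested, 3 (Tyrobp, Csf1r and Itgam) were at least 2-fold lower without overlap, with a difference of -3.24 for Tyrobp (limma adjusted p = 0.0934). At least 2-fold lower without overlap were also 2 of 6 hematopoietic markers, of which 5 were lower, and 2 of 6 smooth muscle markers, and the part of these cells in the differences was not tested. In d1 BC, Cxcr6 was at -0.69 and 0.16 against 0.64 and 0.88 (-1.02, and -0.60 without replicate 1 with DOX), and Cxcl1 at -3.25 and -3.32 against -1.74 and -1.43 (-1.70). The 6 fibroblast genes averaged -0.02 and -0.66 with DOX against 0.53 and 0.55 there, with 5 of 6 lower, 2 of them at least 2-fold without overlap, and their part in these differences was not tested. In SM they averaged 3.81 and 2.00 with DOX against 3.96, 2.06 and 4.42. In 5h BC, Cxcl1 was at -3.60 and -2.96 against -2.86 and -1.52 (-1.09, and -0.42 without replicate 2 or -1.76 without replicate 1 of the untreated culture), and Ccr10 and Ccr9 were higher with DOX, beside 10.7% of all probes at least 2-fold higher there. Ccr9 was at -3.39 and -1.57, at least 11.5-fold higher than in the untreated culture, where it was below background, with a limit of 6.16-fold without replicate 2 with DOX, and Ccr10, the receptor of Ccl27 and Ccl28, differed by 1.93 (both adjusted p = 0.989), or by 1.23 without replicate 2 with DOX. With normexp the differences were 1.11 for Ccr9 and 0.48 for Ccr10, and in the authors' values 1.35 and 0.24. In HE1, Ccl6 was 1.31 higher with DOX (adjusted p = 1), at -0.36 and 0.76 against -0.83 and -1.39, and 0.75 higher without replicate 2 with DOX. The 3 measured members with an AP-1 motif other than Cxcl10 had mean DOX effects of -0.40 for Cxcl9, -0.66 for Ccr4 and -0.13 for Ccr3 (adjusted p = 0.7, 0.676 and 0.91).

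The 37 further genes of the pathway were the chemokines outside the naming rule (Xcl1, Pf4, Ppbp, Ccl21a, Ccl21b and Ccl27a), atypical and related receptors, G protein subunits, receptor kinases, arrestins, signalling proteins, the proteases Dpp4, Adam10 and Adam17, and Mif with its receptor Cd74, and 36 were found on the array. Of 31 tested, 15 differed over the untreated populations, against 17.8% of all probes. In the mean DOX test 0 passed, 20 were higher and 11 lower, against 64.7% and 35.3% of all probes, and 3 had an unadjusted limma p under 0.05, against 7.69%. In HP, 6 of 29 were at least 2-fold lower with DOX without overlap, against 6.51% of all probes, and 0 passed. The regulator of G protein signalling Rgs16 rose from FLK1+ cells to 5h BC by 4.01 (limma adjusted p = 0.0251), Ackr1, an atypical receptor of venular endothelium, from d1 BC to HE1 by 4.54 (adjusted p = 0.0174), and Vav1, an exchange factor of blood cells, from HE1 to HE2 by 3.72 (adjusted p = 0.0376). These calls were not examined with arrays left out or slide as a block. The d1 BC and HE1 arrays shared no slide, and with slide as a fixed block 0.403% of all probes were called in that step, against 3.13% without.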

How the data were processed

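RNA of the 27 samples was hybridised to 1-colour Agilent arrays of 62976 spots (55681 probes). The deposited scanner files hold intensities that the authors extracted with Agilent Feature Extraction (10.7.3.1 in the file headers, 10.7.1.1 in the submitters' processing notes), background-subtracted and spatially detrended within each array. The deposited value table holds log2 values after the authors' own normalization between arrays with limma, and was used as an alternative. Further steps of the authors were given in a supplement that was not used here.

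Here gProcessedSignal was scaled to the 75th percentile of its array and log2-transformed. Control spots and outlier flags were left out, and probes were named through their RefSeq accession. limma 3.58.1 (R 4.3.3, package data.table, version 1.17.8) was fitted to all 13 groups with no covariates (lmFit, contrasts.fit, eBayes, 14 residual degrees of freedom), and each contrast tested the probes that every array of 1 or more of its groups held well above background, with Benjamini-Hochberg adjustment over them. A member was called at an adjusted p under 0.05 and a change of at least 2-fold. In the F tests, which have no single fold, only the adjusted p was used. An "at least" fold set the bright group's mean against the lowest signal well above background on the dim arrays, or the dim probe's own where that was higher. Figures and counts used Python 3.11.15, numpy 2.4.6, pandas 2.3.3 and matplotlib 3.10.9. The scripts were tested on simulated data.

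The text names members called in any comparison, members at least 2-fold apart without overlap in a DOX comparison, and Cxcl12, Cxcr4, Ccl2, Cx3cl1, Cx3cr1 and Cxcl16. The Fos, pathway and marker genes were chosen apart from that rule, and members and lists were chosen with earlier results of these data known. A missing value on 1 array (Ccr10 in d1 BC replicate 2) was dropped by the fit. No pair of arrays held identical values (0 pairs), and the number of arrays limits the precision. Alternatives were normexp (offset 50), quantile and median scaling, the authors' values, 2 other filters on dim probes, the mean of all probes of a gene, replicate number or slide as a block, and each array left out in turn. Not every member is reported here by name.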

Additional observations from a re-analysis of the deposited data

Results flagged for a closer look

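In 3 members the DOX-treated arrays lay on opposite sides of the untreated ones in different populations, each without overlap (9.38% of the 32 measured members), as in 11.2% of all probes, so this share is near the background. Ccl6 was 1.31 higher (log2) with DOX in HE1, but differed by -1.31 in HE2 and by -3.08 in HP. Ccr9 was 3.78 higher in 5h BC and differed by -2.07 in HE2, but was below background on both untreated 5h BC arrays and on both HE2 arrays with DOX, so these are bounds, of at least 11.5-fold higher and at least 4.20-fold lower. The bounds were 6.16-fold without replicate 2 of 5h BC with DOX and 2.57-fold without HE2 replicate 1, and with normexp the differences were 1.11 and -0.47. Cxcr6 was 0.36 higher in 5h BC and differed by -1.02 in d1 BC and by -1.99 in SM. Its second probe differed by -0.60 in 5h BC, -0.87 in d1 BC and -2.11 in SM, all in 1 direction. The difference between these populations alone was not tested, and the F test of the DOX effect over the 6 populations gave an adjusted p of 1 for each of the 3 members.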

How the results depend on the processing

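Over settings other than leaving out an array, 131 counts of called members stayed within 1.5 times the reported count and 29 did not. The cause was not tested. Of the 12 single differences of members called in an untreated step, 8 were over 1.5 times smaller with normexp, 4 in the authors' values and 1 with slide as a fixed block, and 0 changed direction. DOX in HP gave 3 called members with normexp, 5 in the authors' values and 1 with slide as a fixed or random block, and HE2 to HP gave 3, 5 and 1 likewise. The authors' values gave 1 (Ccl7) for DOX in SM, d1 BC to SM and SM to HE1. 5h to d1 BC gave 2 (Ccl17 and Cxcr6) with normexp, quantile scaling, the authors' values, the replicate block and slide as either block. d1 BC to HE1 gave 5 with median scaling and 1 (Ccl17) with slide as a fixed block, and d1 BC to SM 1 (Cxcl12) with either slide block. FLK1+ to 5h BC gave 5 and HE1 to HE2 10 with either slide block. With detection in all groups the untreated F test gave 3 (Ccl2, Ccl17 and Cxcl12), HE1 to HE2 gave 2 and the mean DOX effect 1 (Ccl2), with fewer probes tested; the last was also 1 with normexp, where Ccl7 was at -0.83 (adjusted p = 0.113).

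Leaving out 1 array gave 18 to 20 members for the untreated F test, 0 to 2 for the mean DOX effect, 1 to 3 for FLK1+ to 5h BC, 1 to 2 for 5h to d1 BC, 0 to 1 for d1 BC to HE1, 0 to 2 for HE1 to HE2, and 0 to 0 for the others. The mean DOX effect on Cx3cl1 (0.04) was -0.15 with quantile scaling, -0.16 in the authors' values and -0.26 to 0.35 with 1 array left out, below 0 without d1 BC 2, d1 BC with DOX 1, SM 1, SM with DOX 2, HE1 with DOX 2, HE2 with DOX 2, HP 1 or HP with DOX 2. That on Cxcr4 (0.11) was -0.19 to 0.42, below 0 without d1 BC with DOX 1, HE2 2 or HP with DOX 2. Median scaling moved the median of all probes for DOX to -0.67 for 5h BC, 0.43 for SM, 0.37 for HE1 and 0.63 for HE2, and the members lower with DOX to 15 of 19 in 5h BC (from 10) and 18 of 27 in HP (from 14).

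Same-numbered arrays with and without DOX deviated together in 5 of 6 populations (correlations 0.26 to 0.65) but not in 5h BC (-0.18), so the numbers were not taken to pair the arrays throughout. In 11 pairs, those but replicate 1 of 5h BC, both arrays lay on 1 slide. With the replicate block, 5h to d1 BC gave 2 called members (1 without it) and FLK1+ to 5h BC gave 4 (3 without it). HE1 to HE2 gave 7 (5 without it) and the untreated F test 19 (20 without it). The replicate block kept Ccl2 and Ccl7 as the calls of the mean DOX effect. Differences with arrays below background are limited by that background and are bounds at best.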
